A study of Homo sapiens with 2 samples.

Results

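Replication-dependent histone genes, the genes that supply histones for newly copied DNA, were given 24 of the 67071 peaks in a JARID2 chromatin immunoprecipitation sequencing (ChIP-seq) map of MDA-MB-231 cells. The members are the peaks whose nearest transcript carries an older histone name, from HIST1H to HIST4H, pseudogenes included. They carry 22 of the 26257 names in the list, 19 of genes and 3 of pseudogenes. MDA-MB-231 is an established human triple-negative breast cancer line, and the untreated cells were grown in serum. The series holds 1 library made with a polyclonal JARID2 antibody and 1 library of input DNA made without one. The input library was not analysed here, and the series has no JARID2-depleted cells. With 1 ChIP library no value has a replicate check, so everything below describes this peak list and no test across samples was possible. A peak list holds no expression, so the identity of the cells was not checked against markers.

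JARID2 is an accessory subunit of Polycomb repressive complex 2 (PRC2), which methylates histone H3 on lysine 27 and is known for silencing developmental genes. Core histones H2A, H2B, H3 and H4 form the nucleosome, and H1 histones bind the linker DNA between nucleosomes. Their replication-dependent genes are short, lack introns and lie in clusters, the main cluster being HIST1 on the short arm of chromosome 6. They are transcribed strongly in S phase in a nuclear compartment, the histone locus body, and most of their mRNAs end in a stem-loop instead of a poly(A) tail.

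The sequences that the peaks covering a start site lie on are shown for 1 gene of each core class, chosen because the peak overlapped the transcription start site (TSS) and the gene had an entry in the RefSeq promoter table. Each is the 250 bases before the RefSeq start, printed 5′ to 3′ on the gene's strand, from GRCh38.p14, while all peak positions are on hg19. The positions are chr6:27838376-27838625 (minus strand) for HIST1H2AK, chr6:27132796-27133045 (minus) for HIST1H2BJ, chr6:26045134-26045383 (plus) for HIST1H3C and chr6:26027284-26027533 (minus) for HIST1H4B. Capitals mark TATAAA, a form of the TATA box, CCAAT, and ATTTGCAT, the octamer bound by POU-domain factors, read on both strands, and touching matches run together. AAACACA, a motif of H1 promoters, was also searched and was found in none of the 4.
HIST1H2AK: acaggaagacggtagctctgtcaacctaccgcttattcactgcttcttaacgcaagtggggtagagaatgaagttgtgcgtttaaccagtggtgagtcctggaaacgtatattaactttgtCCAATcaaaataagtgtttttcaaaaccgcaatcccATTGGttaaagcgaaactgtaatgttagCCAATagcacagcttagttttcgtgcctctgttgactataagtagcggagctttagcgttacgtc
HIST1H2BJ: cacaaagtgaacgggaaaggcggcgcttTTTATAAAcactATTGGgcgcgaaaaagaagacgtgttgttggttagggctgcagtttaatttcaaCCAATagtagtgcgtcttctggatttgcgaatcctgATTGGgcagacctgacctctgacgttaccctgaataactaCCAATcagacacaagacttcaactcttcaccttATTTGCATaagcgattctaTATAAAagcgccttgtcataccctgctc
HIST1H3C: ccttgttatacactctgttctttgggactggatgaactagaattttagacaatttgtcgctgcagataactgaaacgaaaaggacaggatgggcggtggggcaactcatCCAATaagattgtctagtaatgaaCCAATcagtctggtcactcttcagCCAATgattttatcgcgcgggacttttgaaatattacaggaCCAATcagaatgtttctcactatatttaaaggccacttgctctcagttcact
HIST1H4B: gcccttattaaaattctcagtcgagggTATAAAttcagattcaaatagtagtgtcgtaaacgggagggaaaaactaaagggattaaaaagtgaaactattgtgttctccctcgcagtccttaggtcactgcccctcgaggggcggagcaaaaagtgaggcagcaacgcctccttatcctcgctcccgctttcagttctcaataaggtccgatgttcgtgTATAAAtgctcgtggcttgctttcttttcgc

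HIST1H3C held 4 CCAAT matches, HIST1H2BJ also 4, and HIST1H2AK 3. HIST1H4B held 0 CCAAT matches. TATAAA was matched 3 times in HIST1H2BJ, 2 times in HIST1H4B and 0 times in the others. HIST1H2BJ was the only one of the 4 with the octamer.

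Of the 24 peaks, 20 carried a HIST1 name, 2 a HIST2 name, 1 a HIST3 name and 1 a HIST4 name. On chromosome 6 the 19 HIST1 peaks formed 3 groups separated by more than 500 kb. The first group held 12 peaks over 577 kb (25711969 to 26288950), the second 3 peaks over 17.5 kb (27097827 to 27115338) and the third 4 peaks over 87.8 kb (27775169 to 27862970). The remaining HIST1 peak was named for the pseudogene HIST1H2APS6, which lies on chromosome 13 outside the clusters. HIST2 peaks lay on chromosome 1 (149821486 to 149857916) and the HIST4 peak on chromosome 12. By histone class, taken from the RefSeq symbols, 9 peaks belonged to H4, 7 to H2A, 4 to H2B, 2 to H3 and 2 to H1. The H3 count includes HIST1H1PS2, which RefSeq lists as the H3 pseudogene H3P26 in spite of its older name.

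**Figure D1:**
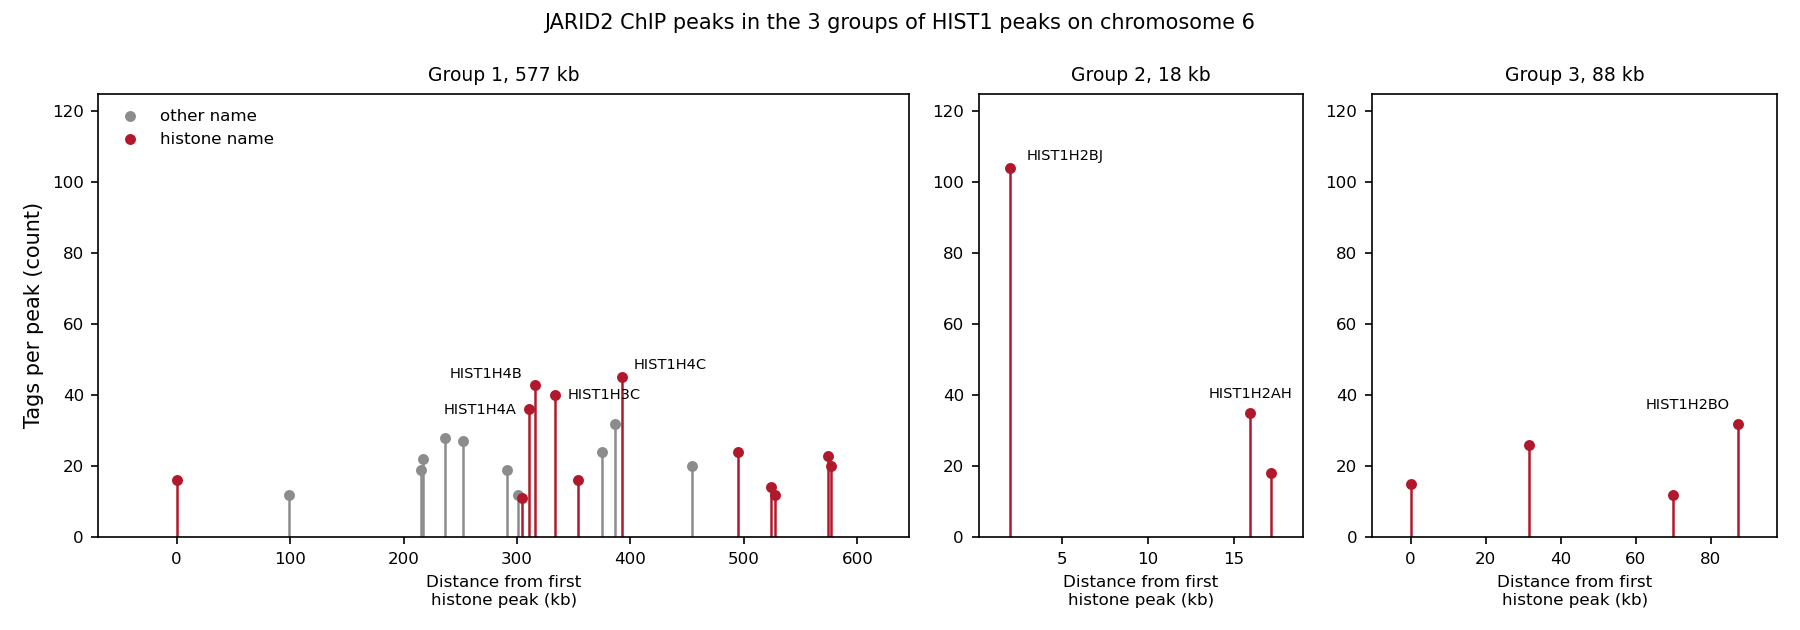
Tags per peak (count, vertical axis) against distance in kb from the first histone peak (horizontal axis), 1 panel for each of the 3 groups on chromosome 6, red for peaks with a histone name and grey for peaks with another name. The HIST1H2BJ peak stands at 104 tags, and the other histone peaks lie between 11 and 45.

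Most histone peaks lay at promoters. The promoter class, which reaches 3 kb from a TSS in the authors' annotation, took 18 of 24 peaks (75%, 95% exact Clopper-Pearson interval 53.3 to 90.2), against 20.5% of all peaks. Peaks overlapping a TSS numbered 10 (41.7%, interval 22.1 to 63.4), against 5.47% of all peaks. The 6 peaks outside the promoter class were distal intergenic, and 0 were given an intron, exon or untranslated-region class. The annotation gives each peak only its own class, so promoter peaks can also cover transcribed sequence. The HIST1H4A peak, for example, spans the whole listed transcript. Intervals here cover counting error only, and neighbouring peaks are not independent.

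The promoter share was also above that of peaks at other short genes and of peaks with other names in the same stretch of chromosome 6, without a test of either difference. The listed transcript was at most 1000 bp long for 19 of the 24 peaks, and 14 of these 19 (73.7%, interval 48.8 to 90.9) were promoter peaks. Peaks given to other protein-coding genes with a listed transcript of at most 1000 bp were promoter peaks in 287 of 819 cases (35%, interval 31.8 to 38.4), and 241 of the 819 (29.4%) lay in introns. With the intron peaks left out the share was 287 of 578 (49.7%, interval 45.5 to 53.8), an interval that overlaps that of the 19 histone peaks. Inside the outer bounds of the histone peaks on chromosome 6 (25711969 to 27862970), 15 of the 47 peaks with other names (31.9%, 19.1 to 47.1) were promoter peaks, against 15 of the 19 histone peaks (78.9%, 54.4 to 93.9). Histone genes lie close together and the replication-dependent ones lack introns. The part these play in the share was not tested.

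The histone peaks were wide and held many tags, and their median fold enrichment was somewhat below that of the list. Fold enrichment is the authors' value for each peak, read as a ratio over the peak caller's background. Tags are counted for each peak, and the headers do not say whether the fold covers the whole peak or a part of it. Tags per histone peak ranged from 9 to 104 with a median of 21.5 (quartiles 14.8 and 32.8), against a median of 12 over all peaks, and 20 of 24 were above that median. Width had a median of 817.5 bp against 510 bp. Tags per kb of peak were close, at 26.7 against 24.8. The fold enrichment ranged from 3.16 to 7.95 with a median of 5.28 (4.30 and 6.24) against 5.95, and 15 of 24 lay below the median of the list. The 95% interval of the histone median, 4.32 to 6.18, holds 5.95. For the 19 histone peaks with a listed transcript of at most 1000 bp the median fold was 5.90. Peaks of other protein-coding genes with such transcripts had 5.85.

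Fold enrichment was lower among the peaks with more tags, both for the histone peaks and for the list. The 8 histone peaks with fewest tags (9 to 16) had a median fold of 6.08, close to 6.12 for the 51560 peaks of the list in that range. The middle 8 (16 to 25) had 5.04, against 5.67 for 15352 peaks. The 8 with most tags (26 to 104) had 4.76, against 5.55 for 4108 peaks in that range with nearly the same median width, 1095 bp against 1063 bp. All of those 8 were promoter peaks.

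**Figure D2:**
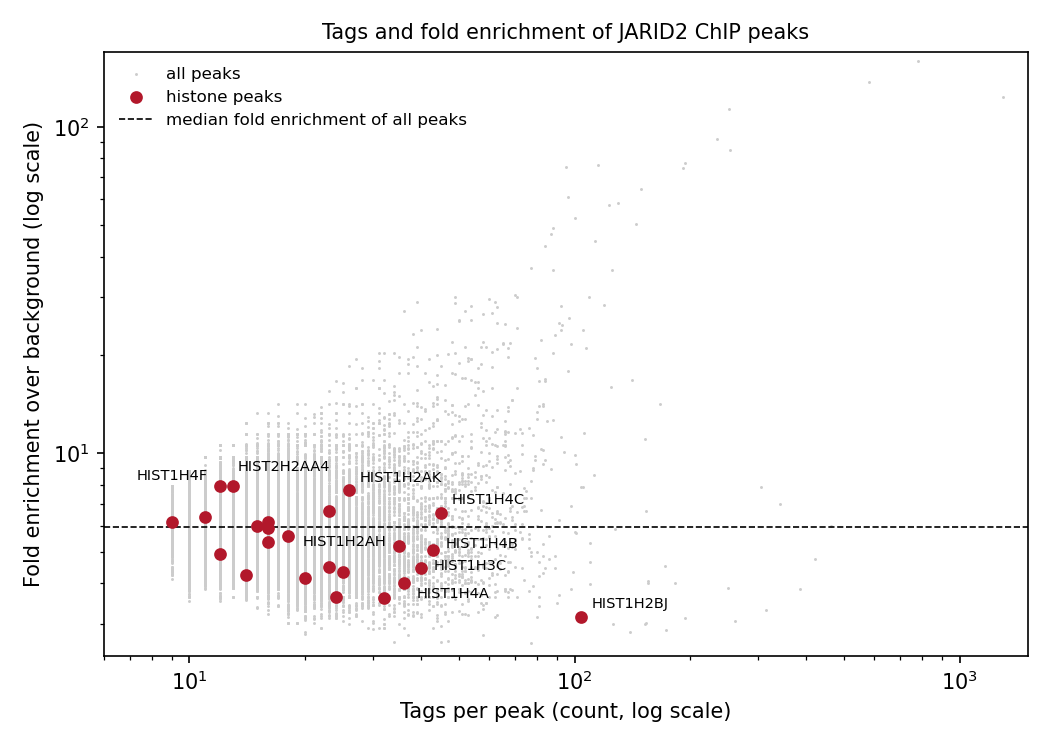
Fold enrichment (vertical, log scale) against tags per peak (horizontal, log scale) for all peaks in grey and the 24 histone peaks in red, with the median fold of all peaks dashed. The histone peaks stay between 3.16 and 7.95, below the upper arm of strong peaks.

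No histone peak reached a false discovery rate (FDR) of 5%. The FDR is the authors' own percentage for each peak, and over the members it ran from 6.94% to 48.2%. At that limit stood 0 of 24 histone peaks, where 1.24% of all peaks reached it, so the count is near the background. A count of 0 was taken to allow a share of up to about 12.5% (3 counts of the 24), which is not an exact interval. At an FDR limit of 20% stood 2 histone peaks (8.33%) against 4.15% of the list, and 4 (16.7%) had a −log10 p of at least 5, against 12.9%. Of all promoter peaks within the quartiles of the histone promoter peaks' width (549 to 1075 bp), 320 of 5949 (5.38%) reached an FDR of 5%. The histone promoter peaks, taken at every width, had 0 of 18. The widths were not matched by this, with a median of 984 bp for the histone promoter peaks against 694 bp. Median fold was 5.13 for the histone promoter peaks against 5.82. Their median tags were 24.5 against 19, and their median tags per kb 27.3 against 26.3. Among peaks overlapping a TSS, 0 of 10 histone peaks and 453 of 3668 of the list (12.4%) reached an FDR of 5%. Counts of 0 among 18 and among 10 peaks bound the share only loosely, and neither difference was tested.

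The peak with the lowest FDR was at HIST1H4C (RefSeq H4C3), a histone H4 gene. It spanned chromosome 6, 26103376 to 26104938, overlapped the TSS and held 45 tags (95% Poisson interval 32.8 to 60.2), with a fold of 6.58 and an FDR of 6.94%. HIST1H2AH, an H2A gene, had 2 peaks separated by a short gap. The upstream peak (27113329 to 27114303) held 35 tags (24.4 to 48.7) with a fold of 5.2 and an FDR of 10.45%. The peak over the start (27114748 to 27115338) held 18 tags (10.7 to 28.4) with a fold of 5.60 and an FDR of 39.5%. These 2 genes were the only members at an FDR of at most 20%, and neither fold was above the list's 75th percentile of 6.85.

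H4 genes had the most peaks of any class. HIST1H4B (26027412 to 26028439) held 43 tags (31.1 to 57.9), with a fold of 5.06 and an FDR of 31.45%. HIST1H4A (26021583 to 26022686), its neighbour, held 36 tags (25.2 to 49.8) at 4.00. HIST1H4H carried 23 tags (14.6 to 34.5) at 4.48 over its start and 20 tags (12.2 to 30.9) at 4.16 in an intergenic peak 3188 bp upstream. The intervals of these 3 genes' peaks over a start overlap. Further H4 peaks of the cluster stood at HIST1H4E (24 tags, 3.64, the edge of the peak 1001 bp downstream of the TSS), HIST1H4F (12 tags, 7.92, 968 bp upstream) and HIST1H4L (12 tags, 4.91, intergenic, 4011 bp upstream). HIST4H4, the lone H4 gene of its cluster on chromosome 12 (14923851 to 14924551), held 16 tags over its start, with a fold of 5.36 and an FDR of 41.65%.

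H2B gave the member peak with most tags and the lowest fold. At HIST1H2BJ a peak 3882 bp wide (27097827 to 27101708) held 104 tags (85.0 to 126), with a fold of 3.16 and an FDR of 47.1%. Of the whole list 5 peaks were at least as wide, this peak among them. Of the 52 peaks with at least 104 tags, whose median fold was 7.91, 9 had a fold of at most 3.16, again with this peak counted. HIST1H2BO (27861978 to 27862970) had 32 tags at 3.61, 776 bp downstream of its start. HIST1H2BA, a testis-specific H2B gene, was given an intergenic peak 14537 bp upstream with 16 tags at 5.90. The pseudogene HIST3H2BA was given an intergenic peak on chromosome 1 (228659364 to 228660387), 8060 bp upstream, with 23 tags at 6.67.

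The largest fold of the members was at an H2A gene. HIST2H2AA4 on chromosome 1 (149821486 to 149821974) had 7.95 with 13 tags (6.92 to 22.2) and an FDR of 36.6%. HIST2H2AA4 has a near-identical copy, HIST2H2AA3, and how reads mapping to both were treated is not stated in the labels or headers, so the placing of that peak is uncertain. HIST1H2AK (27806090 to 27807175) had 7.70 with 26 tags (17.0 to 38.1) and an FDR of 31.55%. These and HIST1H4F were the 3 members in the top 25% of the list by fold. HIST2H2AC had 25 tags at 4.32, 609 bp from its start, and HIST1H2AI 15 tags at 5.97. HIST1H2APS6 had the fewest tags, 9 at 6.18, with its peak 5618 bp upstream.

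Peaks named for H3 or H1 genes or pseudogenes were few in number. H1 has only 6 genes, and 2 of them (33.3%) had a peak of any class, against 26.8% of all 71 histone genes. HIST1H3C (26044987 to 26046431) held 40 tags (28.6 to 54.5) over its start, with a fold of 4.45 and an FDR of 45.6%. HIST1H1PS2 held 11 tags at 6.40. The linker histone gene HIST1H1D had 14 tags at 4.24, 914 bp upstream, and HIST1H1C an intergenic peak 9571 bp upstream with 16 tags at 6.17.

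Summits of the promoter peaks fell on both sides of the listed start. Of the 18, 11 had the summit upstream and 7 downstream, and 5 of those 7 summits were inside the listed transcript. All 10 peaks that overlapped a TSS had their summit within 500 bp of it, at a median distance of 280 bp and at most 445 bp. At HIST1H4A the summit was 4 bp upstream, at HIST1H2BJ 116 bp downstream and at HIST4H4 134 bp upstream. Among those 10 peaks the summit was upstream in 4 of 5 H4 peaks and in 1 of 5 of the other classes, a difference that was not tested.

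**Figure D3:**
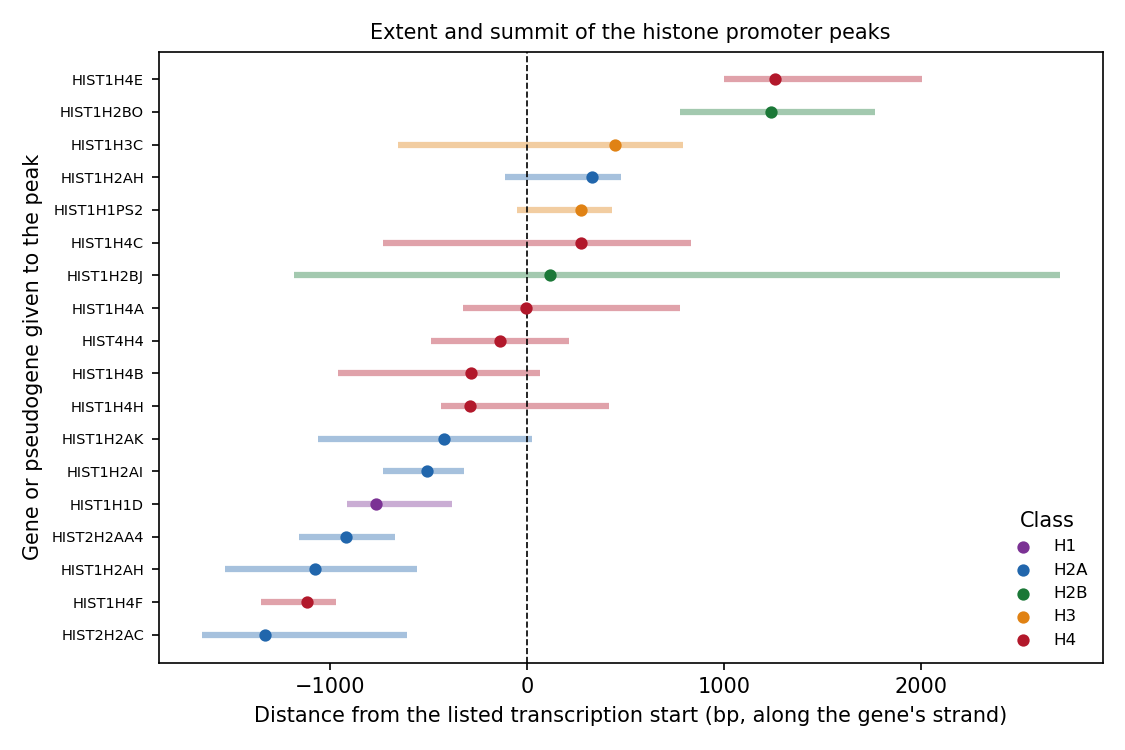
Extent (bars) and summit (points) of the 18 histone promoter peaks in bp from the listed transcription start along the gene's strand, coloured by histone class. The 10 peaks that cross the dashed start line have summits within 445 bp of it.

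Counted by gene, promoter peaks were spread over 16 histone genes, most of them H4 or H2A genes. RefSeq lists 90 genes and pseudogenes with a HIST1H to HIST4H name, 71 of them protein-coding. All 24 peaks matched 1 of the 90. Of the 71 genes, 16 (22.5%, exact interval 13.5 to 34.0) had a promoter peak, against 33.1% of all 20037 protein-coding genes. Any peak was given to 19 of the 71 (26.8%) against 56.3% of all genes. By class, a promoter peak was given to 7 of 15 H4 genes (46.7%, 21.3 to 73.4), 5 of 17 H2A (29.4%, 10.3 to 56.0), 2 of 18 H2B (11.1%, 1.38 to 34.7), 1 of 15 H3 (6.67%, 0.169 to 31.9) and 1 of 6 H1 (16.7%, 0.421 to 64.1). The intervals of the classes overlap. In cluster HIST2 it was 2 of 12 genes and in HIST3 0 of 3.

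Each peak is named for 1 nearest transcript, so a peak between neighbouring histone genes counts for 1 of them. The peaks on chromosomes 1, 6 and 12 carry 21 names, and 19 of these had another gene or pseudogene with a HIST1H to HIST4H name next to them in RefSeq, 10 of them on both sides. HIST4H4 has the variant histone gene H2AJ beside it instead. HIST1H4A lies between HIST1H3A and HIST1H4B, and HIST1H4B between HIST1H4A and HIST1H3B. HIST1H2BJ adjoins HIST1H2AG, and its peak extends upstream of the HIST1H2BJ start. How many unlisted histone promoters lie under these peaks was not counted, because gene positions on hg19 were not used beyond the list.

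**Figure D4:**
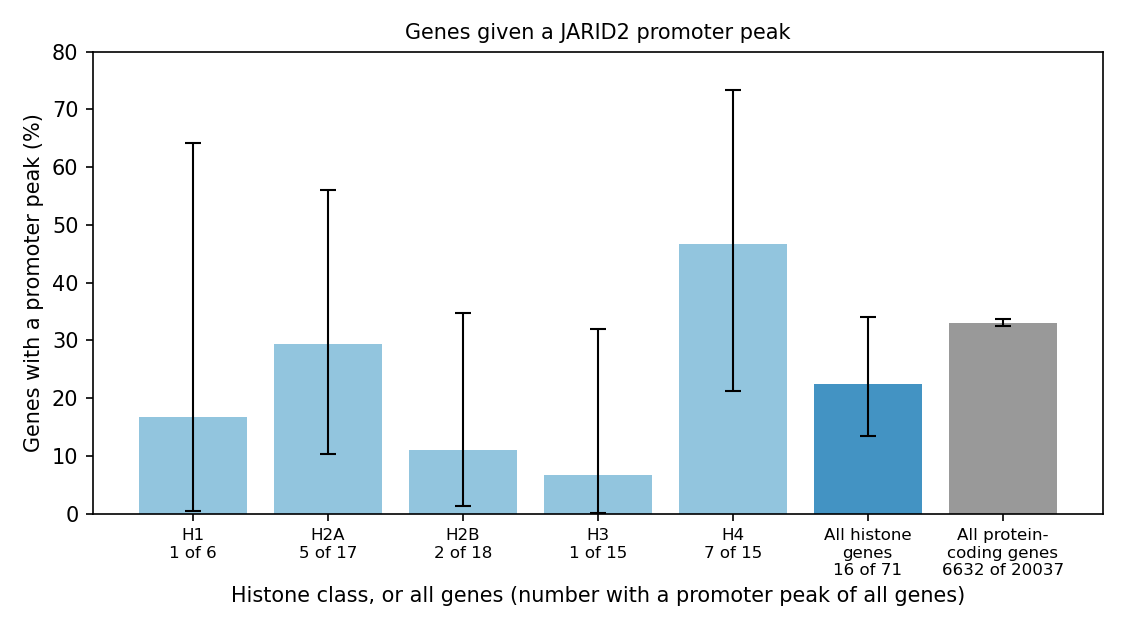
Percentage of genes given a promoter peak (bars, with 95% exact intervals) for the 5 histone classes, all 71 histone genes and all 20037 protein-coding genes. H4 stands highest with 7 of 15 and H3 lowest with 1 of 15, and their intervals overlap.

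Peaks with other names inside the histone bounds on chromosome 6 also had more tags and lower folds, by median, than the rest of that chromosome. In the first group the 12 histone peaks had a median of 21.5 tags and a fold of 4.77, and the 10 peaks with other names had 21 and 4.75. Over the whole bounds on chromosome 6 the 19 histone peaks had 23 tags and 5.06, the 47 others 18 and 5.29, and the rest of the chromosome, 3712 peaks, 13 and 5.72. Of the 47 others 1 reached an FDR of 5%. The bounds held 30.7 peaks per Mb against 22.1 over the chromosome, though they were set by the histone peaks themselves. MDA-MB-231 cells are aneuploid, and copy number was not measured here.

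The promoter elements of the histone genes differed from those of other genes and among the classes. Of the 71 genes, 66 had a RefSeq promoter entry. H4C1, H4C3, H2AC12, H3C11 and H3C12 had none. In the 250 bases before the start, CCAAT was found in 56 of 66 (84.8%) against 33.0% of 27305 promoters of all genes, TATAAA in 44 (66.7%) against 11.1%, ATTTGCAT in 26 (39.4%) against 1.66% and AAACACA in 6 (9.09%) against 4.95%. AAACACA was found in 6 of 6 H1 promoters and in 0 of the other classes. The octamer stood in 14 of 18 H2B and 11 of 16 H2A promoters, in 1 of 13 H3 and in 0 of 13 H4 promoters. Every H1, H2A, H2B and H3 promoter with an entry held CCAAT, as did 3 of 13 H4 promoters.

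Histone promoters with a peak were more often H4 promoters (5 of 13) than those without (8 of 53). CCAAT stood in 9 of 13 promoters with a promoter peak (69.2%) and in 47 of 53 without (88.7%). Within H4 it was 1 of 5 with a peak and 2 of 8 without, and in the other classes 8 of 8 and 45 of 45. TATAAA stood in 8 of 13 with a peak and 36 of 53 without, the octamer in 3 of 13 and 23 of 53. Only 6 of the 13 had a peak overlapping a TSS. Among these 6, CCAAT stood in 3, TATAAA in 3 and the octamer in 1. The histone promoters were poorer in G and C than others, with a median of 42.6% against 58.0%, and those with a promoter peak had 46.0%. Motif matches are descriptions of letters, not of binding, and divergent histone genes share parts of these sequences. Of the 66 promoters 4 (H4C14, H4C15, H3C4 and H2AC7) shared all 250 bases with another promoter, and each was counted.

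Some stronger peaks than those of the histone genes stood at genes of 3 lists written for this comparison. The lists held variant histones, factors of the histone locus and of histone mRNA, and histone chaperones, and their factors need not be particular to histones. Of 19 variant histone genes without a HIST1H to HIST4H name, many of which supply histones outside S phase, 3 (15.8%) had a promoter peak. H3F3B, which encodes the replacement histone H3.3, had 19.75 with 67 tags and an FDR of 0 (chromosome 17, 73780650 to 73781722). CENPA, the centromeric H3, had 9.11 with an FDR of 34.7%, and H2AFY, which encodes macroH2A1, 5.60 with 48.8%. Factors of the histone locus and of histone mRNA processing had promoter peaks at 10 of 23 genes (43.5%, exact interval 23.2 to 65.5). SLBP, which binds the histone mRNA stem-loop, had 9.46 with 35 tags and an FDR of 5.08%. The Sm protein genes SNRPD3 (8.83, FDR 34.8%), SNRPG (8.60, FDR 0) and SNRPB (7.80, FDR 32.1%) followed. Histone chaperones had 5 of 16 (31.2%, 11 to 58.7), led by ASF1B (11.54, FDR 8.21%), TONSL (9.71, 27.6%), ASF1A (8.08, 22.9%) and CHAF1A (6.55, 43.1%). The 33.1% of all protein-coding genes lay inside the intervals of all 3 lists, that of the variant histones being 3.38 to 39.6.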

How the data were processed

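The input was the deposited list of JARID2 peaks. The submitters' processing notes name bcl2fastq, Bowtie (0.12.8), MACS, MACS2, ChIPseeker and the hg19 build. They give no calling threshold, duplicate filter, handling of multiply mapping reads or use of the input. Tags are deposited as whole counts for each peak, without normalisation. Fold enrichment is deposited as a linear ratio over the caller's background and FDR as a percent (per the file headers). A deposited score whose header was lost starts at 30, and was taken as −log10 p times 10. Library depth is unknown.

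Members were rows whose symbol starts with HIST1H to HIST4H. Members and lists were chosen with earlier results of these data known. Symbols were matched to RefSeq (GRCh38.p14) by symbol or a synonym of 1 gene, and promoters came from RefSeq. Named were members with an FDR of at most 20%, those with extreme fold or tags, the leading member of each class and cluster, HIST3 and HIST4 members, those with most peaks, and up to 4 genes of each other list by promoter fold. That took in nearly all members, and the rest were named to account for each. Counts, medians and exact intervals were computed with pandas 2.3.3 and SciPy 1.17.1, and the functions were tested on simulated data. No test was made because there was 1 ChIP library.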

Additional observations from a re-analysis of the deposited data

How the results depend on the processing

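The alternatives were stricter limits on the list, another choice of members, merging of peaks and another promoter reach, and, with the count at an FDR of 5% left aside, 22 of 38 values stayed within 1.5 times the reported count or within the reported interval. Stricter limits keep fewer peaks by construction. At an FDR of at most 20%, 2 peaks, 2 names and 2 genes with a promoter peak were left, with 100% in promoters and a median of 40 tags. At −log10 p of at least 5 there were 4 peaks, 4 names and 4 genes, 100% in promoters and a median of 39 tags. In the top 25% of the list by fold there were 3 peaks, 3 names and 3 genes, 100% in promoters, a median fold of 7.92 and a median of 13 tags. With every peak inside the bounds of each group of histone peaks (34 peaks, the 3 groups on chromosome 6 bounded separately), without pseudogenes, with peaks within 1 kb merged and with a promoter reach of 1 kb, the promoter share was between 70.6% and 81.0%. The count of 0 at an FDR of 5% could not change under limits that only remove peaks. It was also 0 with every peak inside those group bounds and with peaks merged. The depth of 9 to 104 tags per peak limits the comparison of single members. No paired analysis was possible because the series has 1 ChIP library.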
